A study of Mus musculus with 8 samples.

Results

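The colonocytes of the mouse colon were described from 2 single-cell RNA-seq libraries of colon tissue epithelium. A cell barcode was taken as a colonocyte when it held at least 500 genes, at least 2000 unique molecular identifiers (UMIs, each marking 1 captured RNA molecule) and at most 10% of UMIs from mitochondrial genes, and when it carried at least 1 UMI of Epcam, at least 2 of Krt20, at least 2 of Slc26a3 and under 1% of its UMIs from Muc2 and Spink4 together. Epcam encodes an adhesion protein of all gut epithelium, Krt20 a keratin of differentiated cells, Slc26a3 the apical chloride-bicarbonate exchanger, and Muc2 and Spink4 goblet cell products. The rule kept 770 cells, 371 from tissue replicate 1 and 399 from tissue replicate 2, out of 5186 Epcam-positive cells within the limits, 29111 tissue barcodes and 115502 barcodes in the 8 libraries of the series. The members were thus chosen by the measured UMIs of these 5 genes, whose levels are given without a test, and by the share of mitochondrial UMIs.

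The series compares epithelium of colon tissue with 2 cultures grown from C57BL/6 mouse colon, with 2 libraries per group, which the study calls biological replicates. Organoids are epithelium alone in a full medium with Wnt surrogate, CHIR-99021, R-spondin 1 and noggin. Assembloids are organoids placed in Matrigel together with cultured colon stromal cells, without those 4 factors. The medium of both cultures also held EGF and A83-01. The mice of the study were male. Tissue crypts were freed with EDTA and dithiothreitol and dissociated with the enzyme TrypLE. Assembloids were first digested with Liberase TL and DNase I and then treated with TrypLE, so dissociation differed between the groups. Live epithelial cells of every group were sorted. Neither the labels nor the methods give the stretch of colon or the number of mice behind a library. The matching rule found 449 cells in assembloids (208 and 241), 4 in organoid replicate 1 and 0 in organoid replicate 2, so tissue was compared with assembloids. Colonocytes made up 15.2% (95% exact interval 13.8 to 16.7) and 14.5% (13.2 to 15.9) of Epcam-positive tissue cells, 0.957% and 3.60% of assembloid cells and 0.0841% of organoid cells in replicate 1. These shares follow from the rule and from how crypts were freed and sorted, and are given without a test.

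Colonocytes are the absorptive cells of the large bowel. They are born in the crypt, move up to the surface in a few days and are shed there. They take up sodium, chloride and water, exchange chloride for bicarbonate, burn butyrate made by the microbiota as their main fuel, and hold bacteria off with a brush border, membrane mucins and secreted proteins. The crypt cells below them divide and secrete chloride instead.

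Tissue colonocytes had a median of 18278 and 16240 UMIs and 4012 and 3959 genes per cell, and 7452690 and 7025408 UMIs over all colonocytes of a library. The 2 classes of tissue cells they are set against were less deep in replicate 2, with a median of 16405 and 7410 UMIs in non-goblet cells without a Krt20 UMI and 17729 and 10406 UMIs in cells rich in Muc2 and Spink4. The median share of mitochondrial UMIs was 6.80% and 7.92% in tissue colonocytes and 3.48% and 4.49% in assembloid colonocytes, and the median depth of the latter was 10960 and 19659 UMIs. Any pair of the 6 epithelial libraries shared 17 to 141 barcodes, and no pair shared a colonocyte barcode. The deepest tissue colonocyte held 197335 UMIs, and no doublet caller was run. Levels below are CPM, the counts of a gene scaled to a library total of 1e6 UMIs, with UMIs summed over the colonocytes of 1 library, and 2 values joined by "and" are replicates 1 and 2. Each captured molecule gives 1 tag near its 3′ end, so levels were not divided by gene length.

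The label was checked with 8 colonocyte genes that the rule did not use. In sum they stood at 25063 and 21368 CPM in colonocytes, against 3420 and 4201 CPM in Krt20-negative cells (non-goblet Epcam-positive cells without a Krt20 UMI, n = 1204 and 1080) and 2352 and 2592 CPM in goblet-high cells (at least 1% Muc2 and Spink4 UMIs, n = 671 and 892). Lypd8, at 16336 and 13165 CPM, and Guca2a, at 6117 and 6295 CPM, made up most of the sum in colonocytes. One of the 8, Slc51a, was close to 0 at 0.805 and 0.712 CPM. Markers of fibroblasts were at 0 in all 6 genes, markers of immune cells summed to 0.403 and 2.99 CPM with 4 of 8 at 0, and the 7 cycling genes summed to 63.7 and 102 CPM against 463 and 393 CPM in Krt20-negative cells. The 7 stem cell genes summed to 64.4 and 106 CPM against 459 and 415 CPM. Enteroendocrine markers summed to 44.5 and 49.4 CPM, tuft markers to 29.8 and 25.9 CPM and endothelial markers to 4.43 and 2.56 CPM.

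UMIs of goblet cell genes were present in nearly every colonocyte. Spink4 was found in 100% of them in both libraries and Muc2 in 95.7% and 97.5%. Muc2 and Spink4 set the 2 classes apart by rule. Of the goblet products that the rule did not use, colonocytes held, relative to goblet-high cells of the same library, 3.71% and 5.13% of the level of Zg16, 2.62% and 3.50% of Clca1, 2.20% and 3.13% of Fcgbp and 2.42% and 2.73% of Mptx1, a pentraxin. The 8 goblet genes of the marker list summed to 1160 and 1549 CPM in colonocytes, 2124 and 3117 CPM in Krt20-negative cells and 28697 and 28758 CPM in goblet-high cells. Whether these UMIs came from RNA released by goblet cells was not tested. Sycn, which encodes the granule protein syncollin, stood apart from these: it was higher in colonocytes, at 4281 and 4114 CPM, than in Krt20-negative cells at 2696 and 2614 CPM and goblet-high cells at 1194 and 1186 CPM.

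The most abundant transcripts were those of barrier, cytoskeletal and respiratory genes. Of the 20 highest, 5 were encoded by the mitochondrial genome, with mt-Co3 at 14611 and 16942 CPM. Malat1, a nuclear non-coding RNA, had the highest mean level, at 20729 and 15673 CPM. The highest nuclear protein-coding gene was Lypd8, a secreted protein that keeps flagellated bacteria away from the surface, at 16336 and 13165 CPM. It was followed by S100a6, a calcium-binding protein, at 12920 and 11829 CPM and Crip1 at 7919 and 7212 CPM. Lgals4, a galectin of the apical membrane, reached 6934 and 7125 CPM. The simple-epithelium keratins Krt8 and Krt19 reached 5742 and 6709 CPM and 4327 and 5497 CPM. Guca2a, the peptide guanylin that acts on the epithelial guanylate cyclase, stood at 6117 and 6295 CPM, and the antioxidant enzyme Prdx6 at 6578 and 5684 CPM. For each of these named genes the values of the 2 libraries lay within 1.4-fold of each other.

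The highest folds over Krt20-negative cells included those of several transporters. The contrast is the one that chose the cells, so these folds describe the members and are not tested. Slc9a3, the sodium-hydrogen exchanger NHE3, was at 2.51 and 6.05 CPM in Krt20-negative cells and 129 and 150.4 CPM in colonocytes, folds of 51.3 and 24.9. Car4, a membrane-bound carbonic anhydrase, went from 11.97 and 37.99 to 961 and 608 CPM and the cytosolic Car1 from 125 and 244 to 2294 and 2841 CPM. The water channel Aqp8 went from 3.03 and 13.2 to 215 and 169 CPM, the peptide transporter Slc15a1 from 2.74 and 4.49 to 109.9 and 54.4 CPM and the potassium-proton pump Atp12a from 7.33 and 9.89 to 200.2 and 109 CPM. The acute phase protein Saa1 went from 31.6 and 67.8 to 1844 and 946 CPM, and the adhesion protein Ceacam20 from 16.2 and 28.4 to 419 and 303 CPM. Guca2a was 11.1 and 8.10 times, Prdx6 10.8 and 6.01 times and Lypd8 6.27 and 4.25 times the level in Krt20-negative cells.

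Some genes known from chloride secretion, chosen after their values were seen, were lower in colonocytes than in Krt20-negative cells. The potassium channel Kcnn4 was at 5.23 and 7.26 CPM against 63.05 and 61.7 CPM in Krt20-negative cells, folds of 12.05 and 8.50 in favour of the latter. Its relatives in the same task, Kcnq1 and its subunit Kcne3, were at 22.8 and 25.6 CPM and 20.9 and 36.9 CPM against 166 and 129 CPM and 138 and 134 CPM. The sodium-potassium-chloride cotransporter Slc12a2 was at 38.1 and 39.1 CPM against 276 and 235 CPM, and the chloride channel Cftr at 68.97 and 100.1 CPM against 282 and 308 CPM. Of the epithelial sodium channel, Scnn1a was at 115 and 89.1 CPM while Scnn1b was at 1.07 and 1.28 CPM and Scnn1g at 0.268 and 0.427 CPM.

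**Figure D1:**
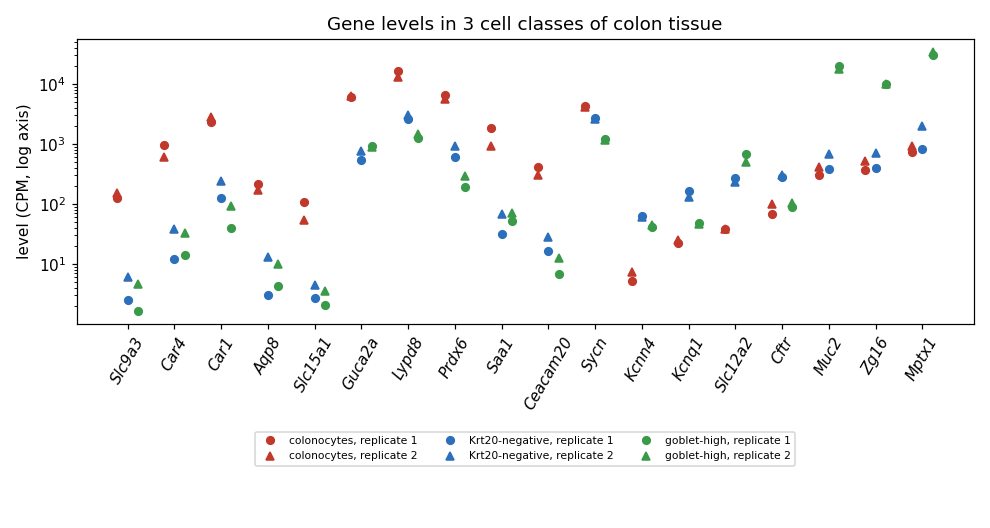
Levels of 18 genes in the 3 cell classes of colon tissue, in CPM on a log axis, with 1 point for each of the 2 libraries. The transporters and carbonic anhydrases from Slc9a3 to Slc15a1 sit highest in colonocytes, and Kcnn4, Slc12a2 and Cftr sit lower there than in Krt20-negative cells. Muc2, Zg16 and Mptx1 sit highest in goblet-high cells, and Sycn is highest in colonocytes.

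Members just inside and just outside the rule differed mostly by degree. The 44 and 49 colonocytes with exactly 2 Krt20 UMIs held Guca2a at 3799 and 3434 CPM and Car4 at 337 and 130 CPM, and the 54 and 90 cells with 1 Krt20 UMI that met the rest of the rule held Guca2a at 3008 and 2209 CPM and Car4 at 121 and 116 CPM. The 17 and 27 colonocytes with exactly 2 Slc26a3 UMIs held Guca2a at 6030 and 4135 CPM and Car4 at 57.8 and 105 CPM. The 13 and 42 cells with 1 Slc26a3 UMI that met the rest held them at 2337 and 2027 CPM and 208 and 54.8 CPM. In replicate 1 Car4 was thus higher just outside the Slc26a3 limit than just inside it. At the goblet limit, the 9 colonocytes of replicate 2 with 0.5% to 1% of Muc2 and Spink4 UMIs held Zg16 at 4677 CPM, and the 4 cells at 1% to 2% that met the rest held it at 8353 CPM. Replicate 1 had 2 and 0 such cells.

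The colonocytes varied among themselves. To compare cells of unlike depth, each was thinned to 5000 UMIs, which left 367 and 380 cells. The genes that varied most in both libraries included Malat1, Sycn, Saa1, Guca2a, Lypd8, Car1, Crip1, Prdx6, Car4, Mptx1, Aqp8 and Fxyd4. The non-coding RNA Gm42418 and the mitochondrial transcripts mt-Co1 and mt-Co3 were also among them. The part of cell quality in this variation was not tested. The 10th percentile, the median and the 90th percentile of UMIs per thinned cell were 0, 11 and 58.4 in replicate 1 and 1, 10 and 58.1 in replicate 2 for Sycn. For Guca2a they were 4, 23 and 70.4 in replicate 1 and 6.90, 27 and 64.1 in replicate 2. For Car4, at 0, 1 and 19 in replicate 1 and 0, 1 and 14 in replicate 2, and Saa1, at 0, 3 and 34.8 in replicate 1 and 0, 1 and 20 in replicate 2, the 10th percentile held no UMI.

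The pairs of genes compared among cells were picked by hand, not found by a search. A first pattern joined Car4, Saa1 and Aqp8. Across thinned cells, Spearman's rank correlation was 0.73 and 0.65 for Car4 with Saa1 and 0.69 and 0.57 for Car4 with Aqp8 in replicates 1 and 2. At least 2 UMIs of both Car4 and Aqp8 were found in 20.98% and 13.4% of cells, of Car4 without Aqp8 in 24.3% and 25.3%, and of Aqp8 without Car4 in 0.545% and 0.263%. Cells with Aqp8 therefore lay almost wholly among those with Car4. High rank correlations were also found for Prdx6 with Lypd8, at 0.79 and 0.75, and for Malat1 with Nr3c2, at 0.67 and 0.63. All of these points share a library and a depth, and the correlations are descriptions over cells, which are not replicates.

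A second pattern set Aqp4 and Fabp2 against Fxyd4 and Tgm3. Aqp4 is a water channel of the basolateral membrane, Fabp2 an intestinal fatty acid-binding protein, Fxyd4 a regulator of the sodium pump, and Tgm3 a transglutaminase. The rank correlation was 0.55 and 0.48 for Aqp4 with Fabp2 and 0.39 and 0.45 for Fxyd4 with Tgm3. Between the pairs it was negative, at -0.51 and -0.51 for Aqp4 with Fxyd4, -0.54 and -0.53 for Fabp2 with Fxyd4 and -0.51 and -0.51 for Aqp4 with Tgm3. Aqp4 and Car4 were also opposed, at -0.53 and -0.45, while Guca2a went with Fabp2 at 0.53 and 0.48 and showed little relation to Car4 at 0.04 and 0.21.

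The 2 tissue libraries held these cells in unlike shares. Cells with at least 2 UMIs of Aqp4 and fewer of Fxyd4 made up 29.4% of thinned colonocytes in replicate 1 and 50% in replicate 2, and those with Fxyd4 and fewer of Aqp4 made up 42.8% and 24.2%. Cells with both made up 8.99% and 6.58%. Over all colonocytes, Aqp4 stood at 724 and 1143 CPM and Fabp2 at 372 and 461 CPM, both higher in replicate 2, and Fxyd4 at 856 and 409 CPM and Tgm3 at 1312 and 888 CPM, both higher in replicate 1. With 1 library each this difference has no replicate check. It stands beside every comparison below that names one of these genes.

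**Figure D2:**
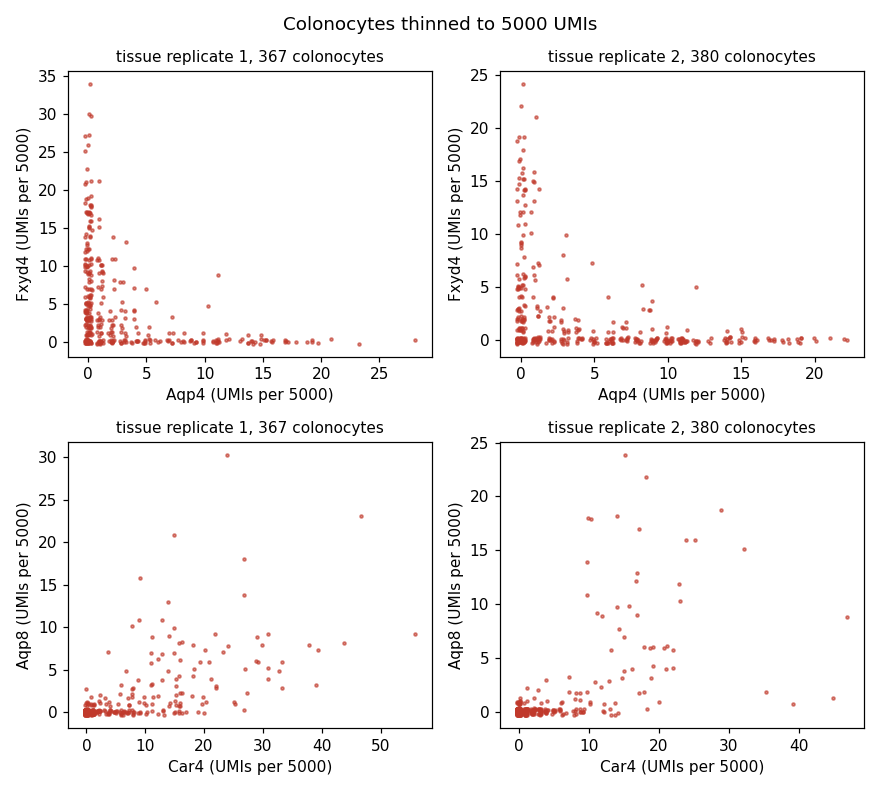
UMIs per colonocyte after thinning to 5000 UMIs in tissue replicate 1 (367 cells, left) and replicate 2 (380 cells, right), with 1 point per cell and a small random shift. In the upper panels cells with many Aqp4 UMIs hold few Fxyd4 UMIs and the reverse, and in the lower panels cells with Aqp8 lie among those with Car4.

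Tissue colonocytes were then compared with the cells that met the same rule in assembloids, which asks how far colonocytes grown beside stroma in culture carry the program of the organ. Assembloid members lay nearer the Slc26a3 limit, with a median of 2.5 and 4 Slc26a3 UMIs per cell against 12 and 9 in tissue. The 2 groups were thus not matched for Slc26a3. UMIs were summed per library and tested as 2 against 2 libraries with edgeR's quasi-likelihood test, and a gene was called at a Benjamini-Hochberg adjusted p under 0.05 over 11675 genes. Of these, 44.2% were called, 20.5% higher and 23.7% lower in tissue, and a list whose shares lie near these does not stand apart. In 77.8% of genes the 2 libraries of one group lay wholly above those of the other. Differences are log2 values after TMM scaling, for which the median of all genes was 0.02. Scaled by total UMIs alone, a choice added after the data were seen, the median was 0.35, with 3961 genes higher and 1917 lower in place of 2399 and 2767. The fibroblast genes summed to 110 and 80.2 CPM in assembloid colonocytes, whose part in the results was not tested, and the immune genes to 17.0 and 61.7 CPM. Of the 208 and 241 assembloid colonocytes, 35 and 58 held a UMI of any of the 8 immune markers, against 3 and 10 in tissue. Without these cells, a setting also added after the data were seen, 2258 genes were higher and 2558 lower, and 107 of the 108 called genes named here that were still tested kept their call, all but Fos. Without tissue replicate 1 the number of called genes was 2847 in place of 5166, and without tissue replicate 2 it was 3412.

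Among called genes with a mean of at least 100 CPM, those highest in tissue colonocytes included Sycn, Klk1 and Gsdmc4. Sycn stood at 4281 and 4114 CPM in tissue and 3.08 and 11.6 CPM in assembloids (log2 difference 8.66, SE 0.41, adjusted p = 4.1e-06). Gsdmc4, a gasdermin, stood at 965 and 1057 against 5.78 and 8.95 CPM (log2 difference 6.70, SE 0.23, adjusted p = 1.6e-06). Tgm3 was at 1312 and 888 against 26.6 and 21.6 CPM (5.19, adjusted p = 6.7e-06), the sugar phosphate carrier Slc37a2 at 338 and 148 against 2.31 and 3.92 CPM (5.86, adjusted p = 5.8e-05) and Dgkh, a diacylglycerol kinase, at 281 and 267 against 5.39 and 7.27 CPM (5.05, adjusted p = 2.7e-06). In each of these the tissue and assembloid libraries were far apart. Klk1, a kallikrein, was at 1129.5 and 1042 against 7.32 and 8.58 CPM (6.73, adjusted p = 1.6e-06), beside 2901 and 2812 CPM in goblet-high tissue cells. Mptx1 was at 726 and 941 CPM in tissue and had no UMI in assembloid colonocytes, at least 2201-fold higher against a limit of 3 UMIs over the group, but goblet-high tissue cells held it at 29995 and 34456 CPM, and the part of goblet RNA in this difference was not tested.

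By the same rule, Cldn4, F3 and Ckb were among the lowest in tissue colonocytes. Cldn4, a claudin of tight junctions, stood at 1.61 and 2.70 CPM in tissue and 274 and 298 CPM in assembloids (log2 difference -7.39, SE 0.24, adjusted p = 1.6e-06). F3, the tissue factor that starts coagulation, stood at 3.35 and 4.13 against 339 and 303 CPM (log2 difference -6.77, SE 0.23, adjusted p = 1.6e-06), and Ckb, the brain-type creatine kinase, at 1.61 and 3.84 against 181 and 263 CPM (log2 difference -6.70, SE 0.33, adjusted p = 4.5e-06). Bnip3, which marks mitochondria for removal, was at 7.51 and 4.70 against 425 and 314 CPM (-6.26, adjusted p = 4.8e-06), and Ndrg1 at 17.4 and 19.6 against 606 and 688 CPM (-5.47, adjusted p = 1.6e-06). Sprr1a, a cornified envelope protein, differed by -5.41, adjusted p = 3.2e-05, Eif4ebp1, a brake on translation, by -5.07, adjusted p = 2.1e-06, Ero1l, an oxidase of the endoplasmic reticulum, by -4.93, adjusted p = 2.7e-06, the metallothionein Mt2 by -4.68, adjusted p = 6.5e-06 and Ly6c1 by -4.43, adjusted p = 4.1e-06.

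Genes of glycolysis and the response to hypoxia were lower in tissue colonocytes without exception among those listed. The list of 20 genes covers glucose entry, glycolytic enzymes, lactate export and targets of hypoxia-inducible factor, which binds short motifs in gene promoters when oxygen is low. All 20 were called lower, where 23.7% of all genes were, with a median of -2.48. Slc16a3, the lactate exporter MCT4, stood at 0.537 and 0.427 CPM in tissue and 121 and 108 CPM in assembloids (log2 difference -8.16, SE 0.29, adjusted p = 1.6e-06). Egln3, the oxygen sensor PHD3, was at 25.8 and 17.1 against 345 and 325 CPM (-4.31, adjusted p = 7.5e-06). The glucose transporter Slc2a1 was at 76.9 and 98.8 against 342 and 419 CPM (-2.46, adjusted p = 2.5e-05). Of the abundant enzymes, Gapdh was at 1166 and 1332 against 5098 and 6024 CPM (-2.50, adjusted p = 2.6e-05) and Pgk1 was at 185 and 226 against 936 and 1110.2 CPM (-2.66, adjusted p = 1.6e-05). All 20 were also lower under DESeq2, total-UMI scaling, thinned cells and the tighter mitochondrial limit.

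The promoters of 18 of the 20 genes were matched by symbol in RefSeq (GRCm38.p6), and the 250 bases before the start site were searched on both strands for ACGTG and GCGTG, the core letters bound by hypoxia-inducible factor. At least 1 match was found in 14 of 18 (77.8%), against 57.8% of 9122 promoters of all genes tested in colonocytes and 38.6% of all 27025 promoters in the table, so the letters are common in promoters of expressed genes. The promoters of Aldoa, Pkm, Tpi1 and Vegfa held no match. The sequences of 4 genes, picked from those with a match, are shown on the gene's strand, 5′ to 3′. The matched letters of either strand are in capitals, and a palindromic CACGTG counts on both strands.
Bnip3, chr7:138909507-138909756, minus strand: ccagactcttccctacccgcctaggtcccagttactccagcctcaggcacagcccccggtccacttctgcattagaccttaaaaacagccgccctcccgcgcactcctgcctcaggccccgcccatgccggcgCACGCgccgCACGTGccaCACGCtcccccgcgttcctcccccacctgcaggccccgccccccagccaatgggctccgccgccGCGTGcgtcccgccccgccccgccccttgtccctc
Slc16a3, chr11:120948817-120949066, plus strand: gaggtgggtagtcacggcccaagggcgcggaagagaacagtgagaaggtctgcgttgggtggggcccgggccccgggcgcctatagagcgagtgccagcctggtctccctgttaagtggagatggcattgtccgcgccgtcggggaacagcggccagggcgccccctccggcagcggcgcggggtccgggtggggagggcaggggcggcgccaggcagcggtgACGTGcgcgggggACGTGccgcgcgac
Pgk1, chrX:106186850-106187099, plus strand: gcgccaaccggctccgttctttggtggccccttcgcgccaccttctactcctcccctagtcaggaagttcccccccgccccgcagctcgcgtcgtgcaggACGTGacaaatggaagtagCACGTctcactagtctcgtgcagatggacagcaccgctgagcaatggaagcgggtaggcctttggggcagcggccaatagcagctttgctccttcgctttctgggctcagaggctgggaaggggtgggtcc
Slc2a1, chr4:119108495-119108744, plus strand: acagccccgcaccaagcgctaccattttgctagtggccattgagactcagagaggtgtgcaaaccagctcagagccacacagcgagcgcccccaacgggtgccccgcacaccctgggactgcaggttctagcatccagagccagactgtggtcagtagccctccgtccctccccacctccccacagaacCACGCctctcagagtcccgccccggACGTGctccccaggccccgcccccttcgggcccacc
Bnip3 holds 5 matches, and Slc16a3, Pgk1 and Slc2a1 hold 2 each. In Slc16a3 both lie within the last 30 bases before the start site.

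Fuel genes went the other way. Of 20 genes of short-chain fatty acid uptake, fatty acid oxidation and ketogenesis, 12 were called higher in tissue and 1 lower, with a median of 0.73. The 12 higher calls became 7 of 19 in thinned cells, 9 of 19 under the 5% mitochondrial limit and 16 when scaled by total UMIs. Slc5a8, the sodium-coupled carrier of butyrate, stood at 218 and 282 CPM in tissue and 5.01 and 7.46 CPM in assembloids (log2 difference 4.92, SE 0.24, adjusted p = 4.2e-06). Ppara, a lipid-sensing nuclear receptor, was at 24.7 and 26.05 against 0.771 and 1.49 CPM (4.003, adjusted p = 4.7e-05). In both, each tissue library lay above each assembloid library. The mitochondrial import enzyme Cpt1a differed by 1.66, adjusted p = 9.1e-05, a call lost in thinned cells, and the monocarboxylate carrier Slc16a1 by 1.69, adjusted p = 8.4e-05. Bsg, the partner that brings these carriers to the membrane, was the one called lower (-1.40, adjusted p = 0.0004). Pdk4, which holds back glucose oxidation, and Ppargc1a, which drives mitochondrial genes, were higher (3.42, adjusted p = 0.0022 and 1.87, adjusted p = 0.00017). Hadh, Hadha and Acads, the most abundant members without a call, differed by 0.37, adjusted p = 0.094, 0.37, adjusted p = 0.072 and 0.64, adjusted p = 0.057.

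Of 15 nuclear genes of oxidative phosphorylation, 7 were called higher and 1 lower, with a median of 0.48. The sizes were small: Ndufs1 differed by 0.94, adjusted p = 0.0042, Sdha by 0.70, adjusted p = 0.0088 and Cox6c by 0.66, adjusted p = 0.023, and Ndufa4 was lower by -0.76, adjusted p = 0.0041, a call lost when scaled by total UMIs, without either tissue library and in thinned cells. Cox5a, Cox7b and Uqcrh were not called (0.48, 0.13 and 0.36). The 7 higher calls became 2 with at most 5% mitochondrial UMIs per cell, 1 without tissue replicate 1 and 3 without tissue replicate 2, and 12 when scaled by total UMIs. The mitochondrial transcripts mt-Co3, mt-Atp6 and mt-Cytb were higher in tissue (1.02, adjusted p = 0.0038, 1.24, adjusted p = 0.003 and 1.13, adjusted p = 0.002), beside the larger mitochondrial share of tissue colonocytes, and mt-Co1 did not pass (-0.38, adjusted p = 0.13). Under the 5% limit none of these 3 passed, mt-Co3 also lost its call without either tissue library, and mt-Atp6 without tissue replicate 2.

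**Figure D3:**
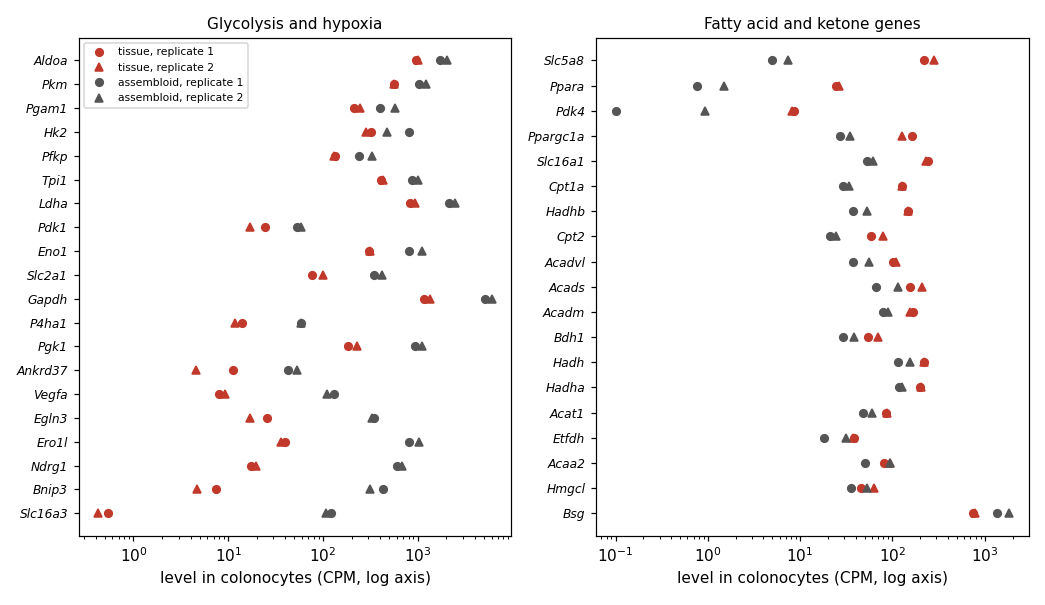
Levels of the 20 glycolysis and hypoxia genes (left) and the fatty acid and ketone genes given here (right) in colonocytes, in CPM on a log axis, with 1 point per library for tissue and assembloids; values of 0 are drawn at 0.1 CPM. Tissue lies below assembloids in each gene on the left and above it in most genes on the right.

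Ion and water transport changed in both directions. Of 26 genes tested, 15 were called higher and 8 lower in tissue, with a median of 0.86. The 8 lower calls became 5 without tissue replicate 2 and when scaled by total UMIs, 4 under the 5% mitochondrial limit and 3 in thinned cells, with 11 to 15 higher in these settings. Trpm6, the magnesium channel, stood at 326 and 264 CPM in tissue and 18.1 and 16.04 CPM in assembloids (log2 difference 3.79, SE 0.21, adjusted p = 7.6e-06). Aqp4 was at 724 and 1143 against 50.9 and 69.00 CPM (3.60, adjusted p = 2.1e-05) and Fxyd4 at 856 and 409 against 40.5 and 47.00 CPM (3.51, adjusted p = 0.00012), so both genes that were opposed among tissue colonocytes were higher in tissue. The exchanger Slc9a3 was at 129 and 150.4 against 23.5 and 17.9 CPM (2.44, adjusted p = 5.4e-05), the sodium-bicarbonate cotransporter Slc4a4 at 462 and 339 against 22.3 and 36.7 CPM (3.39, adjusted p = 2.8e-05) and the sulfate carrier Slc26a2 at 1197 and 794 against 124 and 155 CPM (2.49, adjusted p = 8.8e-05). Kcne3 was also higher in tissue (4.04, adjusted p = 0.00016), at the low level given above. On the other side stood the chloride channel regulator Clca4b, at 0.671 and 1.28 against 86.7 and 41.96 CPM (-6.35, adjusted p = 4.1e-05), its neighbour Clca4a (-2.60, adjusted p = 0.0023) and Aqp8, at 215 and 169 against 262 and 254 CPM (-0.77, adjusted p = 0.0087). Aqp8 lost its call when scaled by total UMIs, under the 5% mitochondrial limit, with at least 1 UMI of Krt20 and Slc26a3 and without tissue replicate 2. Clca4a and Clca4b are near copies, so reads may be split between them. Atp12a, Atp1b3 and Kcnq1 were not called (-0.41, -0.34 and -0.18).

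Carbonic anhydrases split by isoform. Car4 stood at 961 and 608 CPM in tissue and 34.3 and 9.88 CPM in assembloids (log2 difference 4.92, SE 0.53, adjusted p = 0.00017). Car1 went the other way, at 2294 and 2841 against 5596 and 6602 CPM (log2 difference -1.60, SE 0.19, adjusted p = 0.00027). Car2 did not pass the test, at 1089 and 1389 against 939 and 720.1 CPM (0.22, adjusted p = 0.44), nor did Car12 (-0.40, adjusted p = 0.25), and Car13 was lower (-0.68, adjusted p = 0.044), a call that most alternatives ended. The exchanger Slc26a3, which chose the cells, stood at 924 and 719 CPM in tissue and 285 and 245 CPM in assembloids, and Krt20 at 501 and 589 against 546 and 402 CPM.

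The guanylin peptides differed in direction, though the call of Guca2b was lost with at most 5% mitochondrial UMIs. Guca2a (chr4:119637704-119639471, GRCm38) stood at 6117 and 6295 CPM in tissue and 365 and 366 CPM in assembloids (log2 difference 3.74, SE 0.19, adjusted p = 5.3e-06), and 98.1% and 99.5% of thinned tissue colonocytes held a UMI. Guca2b, uroguanylin, stood at 30.7 and 33.2 against 43.5 and 50.2 CPM (-0.90, adjusted p = 0.0023). Their receptor Gucy2c was higher in tissue at 98.6 and 98.2 against 27.7 and 44.6 CPM (1.08, adjusted p = 0.0026).

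Transcription factors of colon identity and differentiation were called higher in 7 of 17 and lower in 2, or 11 and 1 when scaled by total UMIs. Hnf4g stood at 200.2 and 185 CPM in tissue and 27.7 and 18.6 CPM in assembloids (log2 difference 2.75, SE 0.23, adjusted p = 5.2e-05), while its relative Hnf4a did not pass (0.15, adjusted p = 0.48). The vitamin D receptor Vdr was at 259 and 229.6 against 27.7 and 30.96 CPM (2.71, adjusted p = 1.3e-05), and Hoxb13, a gene of the distal bowel, at 267 and 284 against 82.4 and 87.7 CPM (1.35, adjusted p = 0.00021). Klf4 differed by 1.17, adjusted p = 0.0011. Prdm1, also known as Blimp1, was at 1.07 and 0.854 against 24.3 and 13.1 CPM (-4.55, adjusted p = 0.00014). Elf3, Klf5 and Klf3, the most abundant without a call, differed by -0.26, 0.25 and 0.23.

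Of 10 tested genes of BMP signaling (ligands, receptors, inhibitors and response genes), 4 were higher and 2 lower, or 7 and 1 when scaled by total UMIs. BMP is the signal that rises toward the crypt mouth. The response genes Id1 and Id3 stood at 457 and 603 CPM and 201 and 234 CPM in tissue and 99.4 and 115 CPM and 66.3 and 62.3 CPM in assembloids (1.96, adjusted p = 8.1e-05 and 1.41, adjusted p = 0.00027). The inhibitory Smads were higher as well, Smad6 by 3.67, adjusted p = 5.5e-05 and Smad7 by 1.13, adjusted p = 0.0013. The ligand Bmp2 was lower in tissue at 75.4 and 59.1 against 97.1 and 98.1 CPM (-0.88, adjusted p = 0.0044), as was Id2 (-0.61, adjusted p = 0.031). Bmp2 lost its call without tissue replicate 2, under the 5% mitochondrial limit and in thinned cells, Smad7 in thinned cells, and Id2 under most alternatives. The receptors Bmpr1a, Bmpr2 and Acvr1 were not called (-0.14, 0.22 and 0.34).

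Barrier and defence genes were called higher in 7 and lower in 6 of 19. In thinned cells 7 were higher and 2 lower of 14 tested, and under the 5% mitochondrial limit 5 and 6 of 18. The receptor that carries antibodies to the lumen, Pigr, stood at 2405 and 2033 CPM in tissue and 129 and 240.2 CPM in assembloids (log2 difference 3.25, SE 0.27, adjusted p = 5e-05), and the cytokine Il18 at 426 and 480.4 against 33.9 and 53.7 CPM (log2 difference 3.01, SE 0.21, adjusted p = 2e-05). The membrane mucin Muc3 was at 3035 and 2561 against 682 and 654 CPM (1.72, adjusted p = 0.00018), and Lypd8 at 16336 and 13165 against 4762 and 5906 CPM (1.13, adjusted p = 0.0026), a call lost without tissue replicate 1. Lower in tissue were the peroxide-forming oxidase Duox2 (-3.14, adjusted p = 1.7e-05) and its maturation factor Duoxa2 (-5.20, adjusted p = 1.5e-05), Saa3 (-7.09, adjusted p = 1.1e-05) and Ly6g (-2.66, adjusted p = 3.9e-05). The nitric oxide synthase Nos2 was at 2 UMIs in tissue and 66 in assembloid colonocytes, a ratio of 60.04 (95% counting interval 15.98 to 506). Saa1 did not pass (0.49, adjusted p = 0.39), at 1844 and 946 against 1084 and 458 CPM, nor did Lgals4 (0.09, adjusted p = 0.7) or Lgals3 (0.24, adjusted p = 0.32).

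Detoxification genes were higher in 11 and lower in 4 of 21, and without assembloid replicate 1 the lower calls were 7 of 22. The sulfotransferase Sult1a1 stood at 142 and 147 CPM in tissue and 2.70 and 2.61 CPM in assembloids (log2 difference 5.44, SE 0.22, adjusted p = 2.7e-06). Mgst1, a membrane-bound glutathione transferase, differed by 2.63, adjusted p = 8.4e-05, the cytochrome Cyp2c55 by 2.55, adjusted p = 5.8e-05 and the selenium-binding protein Selenbp1, at 3078 and 2771 against 414 and 474 CPM, by 2.37, adjusted p = 2.7e-05. The carboxylesterase Ces1g had 58 UMIs in tissue and 2 in assembloid colonocytes, a ratio of 15.9 (95% counting interval 4.22 to 135). Lower in tissue were the metallothioneins Mt1 (-2.97, adjusted p = 5.9e-05) and Mt2, named above, and the glutathione transferases Gsta1 (-4.07, adjusted p = 1.2e-05) and Gsta4 (-3.14, adjusted p = 2.7e-05), whose close relatives can share reads.

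Brush border genes showed no common direction, with 4 higher and 5 lower of 15 and a median of -0.24 that became positive (0.10) when libraries were scaled by total UMIs, with 5 higher and 2 lower. Without tissue replicate 1 the counts were 1 higher and 2 lower, and without tissue replicate 2 they were 3 and 2. Tmigd1, an adhesion protein of the brush border, was at 44.8 and 39.4 CPM in tissue and 217 and 142 CPM in assembloids (-2.44, adjusted p = 0.00014). Eps8, an actin capper, was lower (-1.19, adjusted p = 0.00048), and the motor Myo1a and the protocadherin Cdhr5 were higher (0.81, adjusted p = 0.0049 and 0.77, adjusted p = 0.013). The adhesion protein Cdh17 was lower (-0.77, adjusted p = 0.0049), and Plac8, Ezr and Myo1d were not called (-0.43, -0.23 and -0.24). Cdh17 lost its call when scaled by total UMIs, without either tissue library and under the 5% mitochondrial limit, Cdhr5 without tissue replicate 1 and under that limit, and Myo1a without tissue replicate 1 and in thinned cells. Of 18 keratins and junction genes, 3 were higher and 7 lower, but 5 and 5 when scaled by total UMIs. Cldn8, a sodium barrier, stood at 118 and 130.4 CPM in tissue and 0.385 and 2.05 CPM in assembloids (6.04, adjusted p = 6.3e-06), Cldn2 differed by 2.21, adjusted p = 0.0013, Krt7 by -4.10, adjusted p = 3e-05 and Krt18 by -1.61, adjusted p = 0.00048, and Krt8, Krt19 and Cldn7 were not called (0.04, 0.44 and -0.72).

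Regenerative genes, which rise in wound-healing and fetal gut epithelium, were called lower in tissue in 10 of 12 and higher in 0, with a median of -1.74. The median was -2.57 without tissue replicate 2 and -1.23 without assembloid replicate 2, where the genes tested were not all the same. Ly6a, the surface protein Sca-1, was still abundant in tissue colonocytes at 550.1 and 547 against 901 and 1045 CPM (log2 difference -1.17, SE 0.16, adjusted p = 0.00055). Areg and Ereg, ligands of the EGF receptor, were at 168 and 312 against 885 and 715 CPM (-2.10, adjusted p = 0.00059) and 3.49 and 1.28 against 36.2 and 32.3 CPM (-4.15, adjusted p = 7e-05). Anxa5 and Cd44 differed by -3.67, adjusted p = 2.5e-05 and -2.93, adjusted p = 0.00093. Ccn2, a target of YAP, had 1 UMI in tissue and 29 in assembloid colonocytes, a ratio of 52.8 (95% counting interval 8.75 to 2155). The same assembloid colonocytes held 294 UMIs of the fibroblast gene Col3a1, against 0 in tissue. The part of fibroblast RNA in the Ccn2 ratio was not tested. Clu and Ccn1 were not called (0.72 and 0.03). All 7 cycling genes were lower in tissue as well (6 without tissue replicate 1, 4 under the 5% mitochondrial limit and 2 of the 3 tested in thinned cells), with Top2a at 7.11 and 14.7 against 70.5 and 36.6 CPM (-2.63, adjusted p = 0.0011).

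Lipid and sterol synthesis genes were higher in 2 and lower in 6 of 15, but higher in 6 and lower in 4 when scaled by total UMIs. Without tissue replicate 1 the counts were 1 and 4, without tissue replicate 2 they were 2 and 4, and without assembloid replicate 2 they were 4 and 6. The calls included the desaturase Scd1 (-3.26, adjusted p = 7.6e-06), the sterol sensor Insig1 (-3.04, adjusted p = 2.1e-05) and the synthesis enzymes Fdps (-1.34, adjusted p = 0.00028) and Idi1 (-1.10, adjusted p = 0.0029) lower and the elongase Elovl6 (1.49, adjusted p = 0.00016) higher. Hmgcs1 was not called (0.15). Of 13 genes of antigen presentation and interferon response, 3 were higher and 4 lower, near the shares over all genes (20.5% and 23.7%), among them Irf1 (1.38, adjusted p = 0.0031) and Zbp1 (2.57, adjusted p = 0.0012) higher and Ifit1 (-2.85, adjusted p = 0.00025), Ifit3 (-3.39, adjusted p = 0.00082), H2-Ab1 (-3.24, adjusted p = 0.0012) and Bst2 (-1.68, adjusted p = 0.0022) lower. H2-K1, H2-D1 and Irf7 were not called (-0.12, 0.41 and -0.29). For this list 2 were higher and 0 lower of 7 tested in thinned cells, and 2 and 2 of 10 under the 5% mitochondrial limit. Without cells with an immune UMI they were 3 and 3 of 12. Of the list's genes with few UMIs, H2-Eb1 had 10 UMIs in tissue and 0 in assembloid colonocytes. Ciita had 7 in tissue and 1 in assembloids, a ratio of 3.85 (counting interval 0.494 to 173). Both lay on the other side from H2-Ab1. Assembloid colonocytes also held 220 UMIs of the immune gene Lyz2, against 0 in tissue. How much of the H2-Ab1 difference came from immune RNA was not tested. Of 15 immediate early and heat shock genes, which dissociation can raise, 3 were higher and 8 lower. Dissociation differed between the groups, and its part in these values was not tested. Without tissue replicate 1 the counts were 3 and 3, without tissue replicate 2 they were 1 and 9, and scaled by total UMIs they were 5 and 6. Fosb (1.71, adjusted p = 0.0027), Ier2 (1.14, adjusted p = 0.017) and Fos (0.61, adjusted p = 0.04) were higher, and Hspb1 (-5.28, adjusted p = 3.9e-06), Ier3 (-4.22, adjusted p = 1.3e-05) and Hsp90aa1 (-1.53, adjusted p = 0.00034) were lower, while Jun, Junb and Egr1 were not called (0.33, 0.06 and -0.30). Fos lost its call without either tissue library, without assembloid replicate 1 and without cells with an immune UMI, and Ier2 without tissue replicate 2. Both lost it under the 5% mitochondrial limit.

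**Figure D4:**
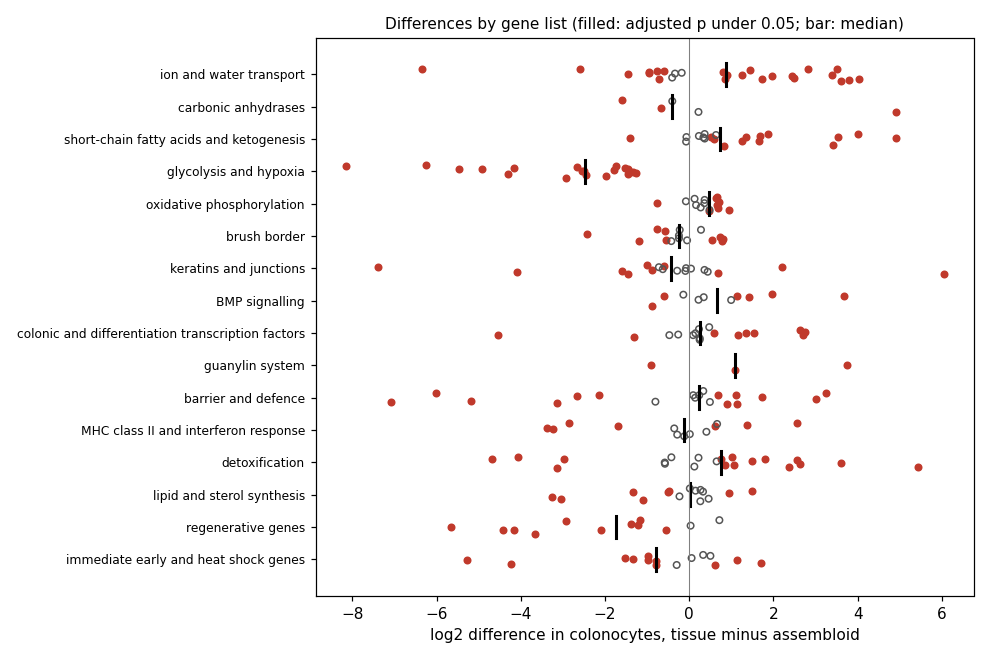
Log2 difference between tissue and assembloid colonocytes for each tested gene of 16 lists, with 1 point per gene, filled where the adjusted p was under 0.05, and a bar at the median. The glycolysis and hypoxia list lies wholly below 0, the regenerative list almost wholly below 0, and the fatty acid list mostly above 0.

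A difference between tissue and assembloid colonocytes may hold for the whole epithelium. Each gene's difference was therefore set against that in Krt20-negative cells of the same 4 libraries, as the interaction of class and group with each library as a block. The Krt20-negative cells of assembloids (n = 14838 and 4246) had a median of 4122 and 13279.5 UMIs. Their fibroblast genes summed to 577 and 822 CPM, against 0 and 0 CPM in Krt20-negative tissue cells. Their immune genes summed to 179 and 466 CPM, against 44.1 and 14.5 CPM. Of these assembloid cells 3352 and 1318 held a UMI of any of the 8 immune markers, against 73 and 35 in tissue. The part of fibroblast RNA in the interactions was not tested. Of 14924 genes, 8.48% were called, 2.93% positive, where the step from Krt20-negative cells to colonocytes was higher in tissue than in assembloids, and 5.55% negative. The larger share of negative calls depended on the settings: positive calls made up 61.1% with no filter on low counts, 63.2% in thinned cells, 62.0% without assembloid replicate 2, 53.2% without tissue replicate 2, 52.2% without the deepest cells and 51.7% without cells with an immune UMI, in place of 34.5%. Without tissue replicate 1 the count was 731 in place of 1266, without assembloid replicate 1 it was 1931, and with at most 5% mitochondrial UMIs it was 92. Of the 20 glycolysis and hypoxia genes, 3 had a positive and 4 a negative interaction, among the latter Ndrg1 (-1.49, adjusted p = 0.0012) and Slc16a3 (-1.69, adjusted p = 0.048), whose call was lost under most alternatives. Without tissue replicate 1 these counts were 0 and 2, and without assembloid replicate 2 they were 6 and 3. Slc2a1, Gapdh, Pgk1, Bnip3, Egln3 and Ero1l were not called, and in Krt20-negative cells Bnip3 was also lower in tissue, at 3.83 and 3.68 CPM in tissue and 290.1 and 265 CPM in assembloids. Guca2a, Car4, Tgm3 and Sycn were not called either, and a missing call does not show that the steps were alike.

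The 10 most positive interactions included those of Sprr2a3, Sprr2a1 and Sprr1a. In tissue, Sprr2a3 was at 23.6 and 30.6 CPM in Krt20-negative cells and 574 and 447 CPM in colonocytes, and in assembloids at 231 and 365 and then 702 and 1105 CPM (interaction 2.64, adjusted p = 0.00022). Sprr2a1 (2.93, adjusted p = 1.1e-05) and Sprr1a (2.27, adjusted p = 0.0013) had the same sign. Ly6a went from 87.8 and 102 to 550.1 and 547 CPM in tissue and from 638 and 788 to 901 and 1045 CPM in assembloids (2.08, adjusted p = 0.00027). Sectm1b went from 6.76 and 9.56 to 229 and 156 CPM and from 3.26 and 5.32 to 28.9 and 21.6 CPM (2.04, adjusted p = 0.0039). Ly6g (1.94, adjusted p = 0.0005), Mgst1 (1.89, adjusted p = 0.00029), Slc37a2 (2.02, adjusted p = 0.023), Slc4a4 (1.84, adjusted p = 0.00055) and the selenium carrier Selenop (1.80, adjusted p = 0.0041) complete the 10 most positive among called genes with a mean of at least 100 CPM. With at most 5% mitochondrial UMIs, 12 of the 23 interactions named here kept their call. Genes were ranked only where the steps from Krt20-negative cells to colonocytes did not overlap between the 2 groups' libraries. The larger step in tissue in each of the 10 was thus set by the choice. Sprr2a1 and Sprr2a3 are members of a family of near copies, and their reads may be shared.

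The most negative interactions were of several kinds. Slc5a8 was at 338 and 349 CPM in Krt20-negative cells and 218 and 282 CPM in colonocytes of tissue, and at 1.02 and 1.60 and 5.01 and 7.46 CPM in those of assembloids (-2.76, adjusted p = 0.00038). Adh1, an alcohol dehydrogenase, went from 801 and 608 to 327 and 251 CPM in tissue and from 18.8 and 40.03 to 56.2 and 104 CPM in assembloids (-2.77, adjusted p = 1.1e-05). F3 went from 28.5 and 31.3 to 3.35 and 4.13 CPM in tissue and from 220.3 and 254 to 339 and 303 CPM in assembloids (-3.44, adjusted p = 1.1e-05). Clca4a (-3.05, adjusted p = 1.1e-05), Cldn4 (-2.06, adjusted p = 0.00078), Krt7 (-1.96, adjusted p = 0.00082), Ckb (-1.88, adjusted p = 0.0041), Gsdmc4 (-2.12, adjusted p = 0.0015), Fabp2 (-1.97, adjusted p = 0.00079) and Insig1 (-2.14, adjusted p = 0.00017) also belonged to the lowest 10. Of the 15 immediate early and heat shock genes, 11 had a negative interaction (6 without tissue replicate 1 and in thinned cells, and 1 under the 5% mitochondrial limit), among them Jun (-1.20, adjusted p = 0.0077), at 1025 and 1084 CPM in Krt20-negative cells and 385 and 631 CPM in colonocytes of tissue, and 256 and 336 and 289 and 345 CPM in assembloids.

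**Figure D5:**
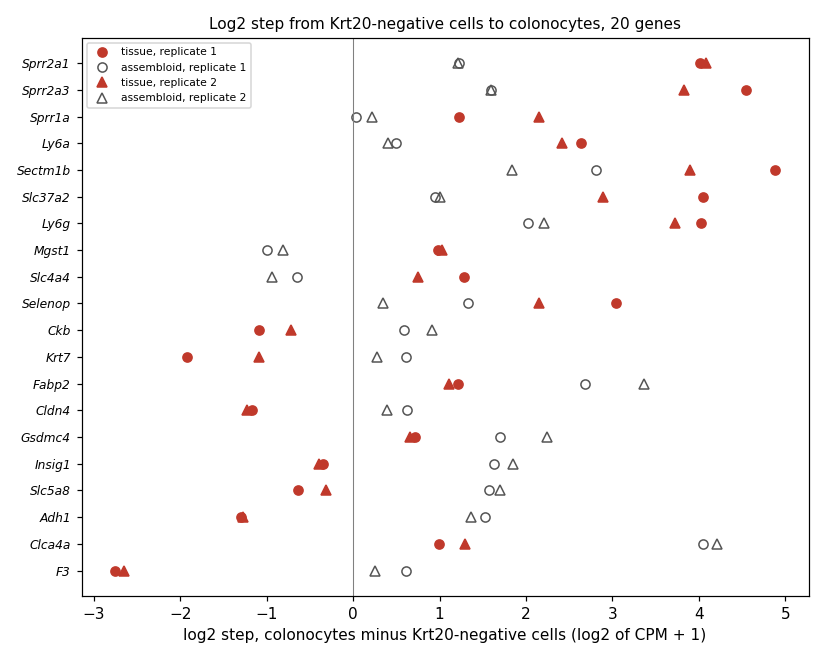
Log2 step from Krt20-negative cells to colonocytes, as log2 of (CPM + 1) per library, for the 20 genes with the most positive and most negative interaction, with filled points for tissue and open points for assembloids. Tissue lies above assembloids in the upper 10 genes and below in the lower 10, as the choice of genes required.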

How the data were processed

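Live epithelial cells of colon tissue, assembloids and organoids were profiled with 10x Genomics single-cell RNA-seq. The deposited epithelial matrices hold UMI counts per gene and barcode made by the authors with Cell Ranger 7.1.0, per the file headers, on mm10, per the submitters' processing notes; whether intronic reads were counted is not given in the sources used here, and it would move the level of nuclear RNA such as Malat1. The stromal libraries were not used. UMIs were summed over the cells of a class and library. Tissue was tested against assembloids on 4 sums, and the interaction of class and group on 8 sums with the library as a block, with edgeR 4.0.16 (filterByExpr, TMM, quasi-likelihood test, Benjamini-Hochberg adjustment) after a check on simulated counts, and with DESeq2 1.42.0 as an alternative. The members, gene lists and tests were chosen with earlier results of these data known. Promoters came from RefSeq and gene positions from GENCODE M21.

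Genes were named by rank. For each test these were the 10 highest and 10 lowest called genes with a mean of at least 100 CPM. The values of the 2 groups' libraries also had to lie apart, so that separation was set by the choice. Each list gave up to 5 called and 3 abundant uncalled genes. Added to these were the 20 highest levels, the 20 highest folds over Krt20-negative cells and the 15 most variable genes. The markers and the 5 genes of the rule were also named. The text gives a part of all these. Kcnn4, Slc12a2, Cftr, Scnn1a, Scnn1b, Scnn1g, Slc26a2, Cpt1a, Slc16a1, Bsg, Gapdh, Pgk1, Slc2a1, Hnf4a, Hoxb13, Klf4, Id2, Il18, Muc3, Cyp2c55, Selenbp1, Mt1, Areg, Irf1, Ier2 and Fos lie outside these ranks and were chosen after their values were seen. Some members of the lists count in their totals and are not reported here by name. Intervals cover counting error only.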

Additional observations from a re-analysis of the deposited data

Results flagged for a closer look

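The difference between tissue and assembloids was itself different in colonocytes and in Krt20-negative cells, by the interaction test in edgeR, for 23 of the genes named. It was more positive in colonocytes for Sprr2a1 (2.93), Sprr2a3 (2.64), Sprr1a (2.27), Ly6a (2.08), Sectm1b (2.04), Slc37a2 (2.02), Ly6g (1.94), Mgst1 (1.89), Slc4a4 (1.84) and Selenop (1.80), in log2 units. It was more negative for F3 (-3.44), Clca4a (-3.05), Adh1 (-2.77), Slc5a8 (-2.76), Insig1 (-2.14), Gsdmc4 (-2.12), Cldn4 (-2.06), Fabp2 (-1.97), Krt7 (-1.96), Ckb (-1.88), Slc16a3 (-1.69), Ndrg1 (-1.49) and Jun (-1.20). The interaction of Slc16a3 was lost under most alternatives.

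Outside the comparisons, 4 of 4754 Epcam-positive cells of organoid replicate 1 met the colonocyte rule (0.0841%, 95% exact interval 0.0229 to 0.215), above the 0.0631% that 3 cells would make there. Organoid replicate 2 held 0 of 4548 cells, which allows a share of up to 0.0811% by the exact interval and 0.0660% at 3 cells.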

How the results depend on the processing

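Of 109 genes called between tissue and assembloid colonocytes and named, none changed direction under an alternative. The fewest calls kept were 92 of 106 tested with at most 5% mitochondrial UMIs, 89 of 97 tested in cells thinned to 5000 UMIs and 96 of 109 when a 2-fold change was required. The count of 5166 called genes became 2636 under the 5% limit, which kept 113 of 371 and 59 of 399 tissue colonocytes, and 1626 in thinned cells, where fewer genes were tested, and lay between 2847 and 5127 when 1 library was left out. The 1266 interactions became 92 under the 5% limit, 457 in thinned cells, 687 with at least 1 UMI of Krt20 and Slc26a3, 803 past a 2-fold change, and between 731 and 1931 without 1 library; the cause was not tested. Scaling by total UMIs, chosen after seeing the data, gave 426 positive of 1185 interactions. Positive calls outnumbered negative ones with no filter (1086 of 1778), in thinned cells (289 of 457), without the deepest cells (913 of 1748), without cells with an immune UMI (530 of 1026), without assembloid replicate 2 (1137 of 1833) and without tissue replicate 2 (571 of 1073). DESeq2 gave 3799 calls, 1515 higher, and 929 interactions.

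The labels number the replicates, and the numbers were not taken as pairs. Over genes, the deviations of tissue replicate 1 and assembloid replicate 1 from their group means correlated at 0.05. With 2 libraries per group, replicate 2 mirrors replicate 1, so this single value cannot decide whether the libraries were paired. With the replicate block the count was 5927, and every named call was kept. Without the library block the interactions numbered 310, and 14 of the 23 named kept their call. Ckb, Clca4a, Jun, Selenop, Slc16a3, Slc37a2, Slc4a4, Sprr1a and Sprr2a1 lost it.

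The share of colonocytes was 13.6% and 8.44% of tissue cells under the 5% limit, 18.8% and 21.7% with at least 1 UMI of each gene, 11.2% and 10.5% with at least 4, and 7.87% and 10.8% in thinned cells. In assembloids the last 3 settings gave 3.51% and 7.86%, 0.212% and 1.55%, and 0.600% and 0.932%.

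Some uncalled genes changed sign. Scaled by total UMIs these were Bmpr1a (0.20), Egr1 (0.0521), Elf3 (0.0808), Ezr (0.12), H2-K1 (0.22), Irf7 (0.0528), Kcnq1 (0.16) and Myo1d (0.0951). In thinned cells they were Acvr1 (-0.26), Atp1b3 (0.12), Car2 (-0.20), Hmgcs1 (-0.28), Hnf4a (-0.15), Junb (-0.31) and Kcnq1 (0.21). Under the 5% limit they were Ccn1 (-0.0133), Cox7b (-0.15), Junb (-0.0533), Krt8 (-0.0952) and Lgals4 (-0.0447). With at least 1 UMI they were Atp12a (0.0647), Ccn1 (-0.29), Egr1 (0.046), Junb (-0.11) and Kcnq1 (0.41), and with at least 4 Bmpr2 (-0.0214), Car12 (0.19) and Irf7 (0.20). Without the deepest cells it was Ccn1 (-0.13). When 1 library was left out, values ranged from -0.92 to 0.0001 for Atp12a, -0.54 to 0.48 for Ccn1, -0.0435 to 0.35 for Cox7b, -0.75 to 0.0707 for Egr1, -0.009 to 0.32 for Hmgcs1, -0.0274 to 0.64 for Jun, -0.15 to 0.26 for Junb, -0.036 to 0.15 for Krt8 and -0.0816 to 1.33 for Saa1.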
